A study of Homo sapiens with 2 samples.

Results

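The integrated stress response genes described here are 10 members, ATF4, ATF5, DDIT3, DDIT4, TRIB3, ASNS, CHAC1, SESN2, PSAT1 and PHGDH. They were taken by name from the 33538 gene identifiers of a CITE-seq matrix, and a UMI of each of the 10 was found. The cells were SH-SY5Y (SY5Y), an adherent human neuroblastoma line with sympathetic, adrenergic features that is widely used as a model of neurons. They were untreated and came from 2 flasks of the line, SplitA and SplitB, which the authors had split from the same culture. Each flask was marked with its own hashtag antibody before pooling, and both were captured together as an mRNA and a hashtag library. The groups compared below are therefore classes of cells within each flask, by mitochondrial share of UMIs and by cell cycle phase, and no treatment was compared. As a model the set is limited to 1 line in 2 flasks of a single experiment. The p-values rest on these 2 flasks, with a dispersion moderated across genes, and do not cover other cultures, lines or experiments.

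The integrated stress response begins with kinases that sense lack of amino acids, unfolded protein in the endoplasmic reticulum (ER), loss of haem, viral RNA or mitochondrial faults, and phosphorylate the initiation factor eIF2. General translation slows, while the mRNAs of the transcription factors ATF4 and ATF5 are translated more, so that much of their control lies past the level of mRNA. ATF4 pairs with C/EBP proteins and raises genes of amino acid synthesis, uptake and tRNA charging, and under prolonged stress DDIT3 (CHOP) and TRIB3. DDIT4 and SESN2, which restrain mTORC1, also answer to hypoxia and p53, and serine synthesis genes are often high in neuroblastoma.

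A cell was assigned to a flask where the count of one hashtag was at least 3 times that of the other and the other was under the background limit of the study's code, which gave 1179 singlets in SplitA and 1605 in SplitB of 2879 cells and left 95 multiplets. Levels and co-expression were taken in the singlets with at least 1000 genes, 899 in SplitA and 1195 in SplitB, with 1801 to 27205 UMIs per cell and medians of 6063 and 6346. Levels are in CPM, UMIs per 1000000 UMIs off the 13 mitochondrial genes, with exact 95% Poisson intervals that cover counting error only. Each UMI marks the 3' end of a transcript, so that CPM is not raised by transcript length, although capture can differ between genes. The cells carried the markers of the line, with 754 and 735 CPM of PHOX2A and 369 and 359 of DBH in SplitA and SplitB, although TH was at 1.69 and 1.23. Of the immune markers PTPRC, CD3E, LYZ and HLA-DRA had no UMI, and CD14 had 0 in SplitA and 6 in SplitB. The culture held no cell type that should lack the members, and so no background from free RNA could be measured.

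ATF4 had the highest level of the 10 members, followed by the serine synthesis genes. There were 355 UMIs of ATF4 in SplitA and 433 in SplitB, which is 66.8 CPM (60.1 to 74.2) and 59.3 CPM (53.8 to 65.1), and a UMI was found in 31.9% and 28.5% of the cells. PHGDH, the first enzyme of serine synthesis from a glycolytic intermediate, had 41.6 CPM (36.3 to 47.5) and 36.0 CPM (31.8 to 40.6). PSAT1, the next enzyme of that pathway, had 22.6 CPM (18.7 to 27.0) and 18.6 CPM (15.6 to 22.0). In both flasks these first 3 levels stood apart from each other beyond counting error.

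The next 4 members lay close together. ASNS, which makes asparagine from aspartate, had 13.7 CPM and 16.6 CPM in SplitA and SplitB. DDIT3, a transcription factor of prolonged stress, had 11.9 and 15.3 CPM, the pseudokinase TRIB3 had 11.3 and 13.4 CPM, and ATF5 had 10.5 and 10.1 CPM. The intervals of each of these and its neighbour overlapped in both flasks, although ASNS (13.7 to 19.8 CPM) and ATF5 (7.95 to 12.7 CPM) lay apart in SplitB. That of ASNS overlapped PSAT1 in SplitB but not in SplitA. DDIT4 followed with 5.27 and 10.1 CPM. SESN2, a leucine sensor of the mTORC1 pathway, had 11 and 13 UMIs, or 2.07 and 1.78 CPM, and CHAC1, which degrades glutathione, had 5 and 16 UMIs, or 0.941 and 2.19 CPM, with overlapping intervals. Among the 17881 genes detected, and by UMIs summed over both flasks, ATF4 ranked 1832, PHGDH 2918, PSAT1 4965 and CHAC1 12162. The median gene had 6.74 CPM, and 8 members lay above it.

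**Figure D1:**
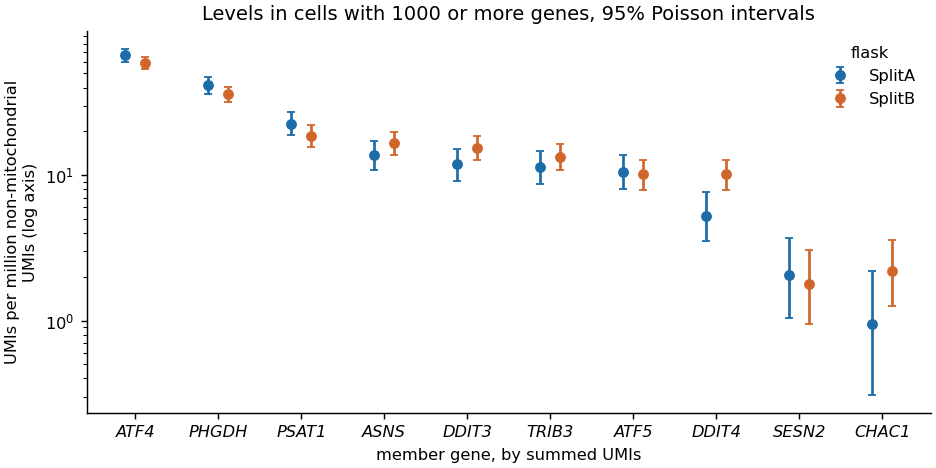
Level of each member (x axis, ordered by summed UMIs) in cells with at least 1000 genes of SplitA and SplitB, in CPM on a log axis, with 95% Poisson intervals. ATF4, PHGDH and PSAT1 are the highest and stand apart from each other, although the intervals of PSAT1 and ASNS overlap in SplitB. ASNS, DDIT3, TRIB3 and ATF5 lie between 10.1 and 16.6 CPM, and only DDIT4 and CHAC1 differ by over 1.5-fold between the flasks.

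Some UMIs may be shared with other genes. ASNS lies on the minus strand of chromosome 7 from 97851677 to 97872542 of GRCh38 and has exon sequence within the span of the lncRNA ENSG00000284707 of the same strand. DDIT3 lies on the minus strand of chromosome 12 from 57516588 to 57521737 and has exon sequence within the span of ENSG00000285133 on its own strand. Whether the exons of these other genes overlap those of the members was not examined. Named pseudogenes, 4 for each gene, are annotated for ATF4, ASNS and PSAT1. The values of these genes are therefore uncertain to the extent that the counting split such reads.

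The promoters were searched for TGATGNAA, the core of the element at which ATF4 and C/EBP partners bind, on both strands of the 250 bases before and 50 bases after each RefSeq start of GRCh38.p14. All 10 members matched, with 17 such windows, and the motif was in 2 of them. Those are windows of ASNS and of CHAC1, and they are shown because both genes are standard ATF4 targets and their levels lay far apart in these cells. Over all genes 1270 of 35116 windows (3.62%) held the motif. The capitals mark the motif, which in ASNS (chr7:97872359-97872658, minus strand) spans positions -68 to -61 from the start and in CHAC1 (chr15:40953221-40953520, plus strand) spans -209 to -202, where it stands on the other strand and is therefore written as its reverse complement.
ASNS: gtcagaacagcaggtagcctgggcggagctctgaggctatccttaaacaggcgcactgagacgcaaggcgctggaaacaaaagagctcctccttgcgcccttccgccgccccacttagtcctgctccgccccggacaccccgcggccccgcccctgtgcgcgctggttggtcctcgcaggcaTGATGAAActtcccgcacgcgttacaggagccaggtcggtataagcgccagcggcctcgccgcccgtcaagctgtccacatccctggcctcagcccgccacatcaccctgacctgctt
CHAC1: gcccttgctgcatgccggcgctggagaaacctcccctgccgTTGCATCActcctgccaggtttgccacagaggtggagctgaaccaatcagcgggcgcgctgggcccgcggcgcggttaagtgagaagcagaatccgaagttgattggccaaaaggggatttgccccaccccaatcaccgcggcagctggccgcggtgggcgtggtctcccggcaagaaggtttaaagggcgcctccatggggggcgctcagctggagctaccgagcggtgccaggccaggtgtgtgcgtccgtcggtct
A second ASNS start, whose window overlaps this one, and the windows of the other 8 members do not hold these letters. A match is a description of the letters, and binding was not measured.

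Between the flasks, both untreated, 2 of the 10 members differed by at least 1.5-fold, against 6.41% of 12207 genes with at least 21 UMIs. With 1 flask a side no test was possible. CHAC1 was 2.33-fold higher in SplitB on 5 and 16 UMIs, and its intervals overlapped. DDIT4 was 1.92-fold higher in SplitB, with 28 UMIs in SplitA and 74 in SplitB. Of those 74 UMIs, 36 came from 4 cells, the highest with 14. In the other cells, those with fewer than 3 UMIs, DDIT4 had 4.71 CPM in SplitA and 5.22 CPM in SplitB. The other 8 members lay between 0.824-fold (PSAT1) and 1.29-fold (DDIT3) in SplitB over SplitA.

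The members also differed in how their UMIs were spread over cells. After each cell was thinned to 2000 UMIs, which left out 3 cells, the median Fano factor (variance over mean) was 0.998 in SplitA and 0.997 in SplitB. DDIT3 reached 1.65 and 1.14, above all but 1.02% and 6.79% of genes. DDIT4 reached 2.83 in SplitB, above all but 0.334% of genes, and 0.989 in SplitA. ASNS had 1.39 and 1.06 and PHGDH 1.11 and 1.19. TRIB3, at a level close to that of DDIT3, had 0.979 and 0.973, with at most 1 UMI in any thinned cell. The most uneven member was thus DDIT3 in SplitA and DDIT4 in SplitB, where PHGDH also lay above DDIT3. These values rest on few cells. In SplitA 1 thinned cell held 4 of the 21 UMIs of DDIT3 and 1 held 4 of the 33 of ASNS. In SplitB 1 held 7 of the 27 of DDIT4. The order without these cells was not tested. TRIB3 had the value near 1 that counts drawn at random would have.

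Those few cells were examined one by one. Of the cells with 1000 or more genes, 11 had at least 3 UMIs of DDIT3 or DDIT4, 2 in SplitA and 9 in SplitB. A SplitB cell with 14 UMIs of DDIT4 had 2 of DDIT3, and a SplitB cell with 12 UMIs of DDIT3 had 2 of DDIT4. The latter also had 10 UMIs of CDKN1A and 9 of GADD45A, both p53 targets. A SplitB cell with 8 UMIs of DDIT4 had 25 of the secreted stress factor GDF15, 8 of CDKN1A and 7 of GADD45A. The cell with 14 UMIs of DDIT4, however, had 0 of CDKN1A, 0 of GDF15 and 2 of GADD45A. SplitB cells with 7 UMIs of DDIT4 had 0 of CDKN1A, GADD45A and GDF15, so that these genes were not common to the 11 cells. ATF5 had no UMI in the 11 cells, and TRIB3, CHAC1, SESN2 and PSAT1 had at most 1 in any of them. Such counts do not show these members to be low there, since no cell had over 2 UMIs of ATF5 or TRIB3 or over 1 of SESN2. CHAC1, found in 1.17% of SplitB cells, had 1 UMI in the cells with 14 and 8 UMIs of DDIT4 and in 1 of those with 7, and 0 in the others. The cells had 5163 to 13795 UMIs, and 7 of them had a mitochondrial share under 5%.

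The first comparison was between cells under and at or over a mitochondrial share of 15%, a limit often set to remove damaged cells. There were 847 and 1130 cells under it and 332 and 475 at or over it. In the cells over the limit the enzymes ASNS, PHGDH and PSAT1 were higher in both flasks, and ATF4 and the stress factors were not. The cells over the limit were much shallower, with medians of 1631.5 and 1598 UMIs against 6244 and 6505. Ribosomal protein mRNA took 14.8% and 15.8% of non-mitochondrial UMIs against 37.9% in both flasks under the limit, and the nuclear RNAs MALAT1 and NEAT1 together 41443 and 41999 CPM against 15340 and 14921. The part of these differences in the results on the members was not tested.

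ASNS differed most among the members. It had 47 UMIs in the SplitA cells under 15% and 69 in those over it, or 9.06 CPM (6.66 to 12.1) against 168 CPM (131 to 213). In SplitB it had 91 against 78 UMIs, or 12.8 CPM (10.3 to 15.7) against 135 CPM (107 to 168). The levels of the classes were thus far apart in both flasks, and the smaller, shallower class held 59.5% and 46.2% of all ASNS UMIs but only 7.33% and 7.53% of all UMIs off the mitochondrial genes. ASNS was also higher per cell, at 20.8 against 5.55 UMIs per 100 cells in SplitA and 16.4 against 8.05 in SplitB. With each cell thinned to 500 non-mitochondrial UMIs, a UMI of ASNS was found in 5.73% against 0.354% of SplitA cells and in 4.98% against 1.06% of SplitB cells, with 18 and 53 cells over the limit left out as too shallow.

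The serine synthesis genes rose together. PHGDH had 35.7 CPM under and 222 CPM over the limit in SplitA and 30.9 and 216 CPM in SplitB. PSAT1 had 20.6 and 112 CPM in SplitA and 17.6 and 67.5 CPM in SplitB. In each flask the intervals of the classes lay apart for both genes. Per 100 cells PHGDH went from 21.8 to 27.4 UMIs in SplitA and from 19.4 to 26.3 in SplitB, while PSAT1 went from 12.6 to 13.9 and from 11.1 to 8.21. The rise of PSAT1 was therefore in its share of RNA and not in UMIs per cell, and a higher level per cell cannot be told apart from loss of other RNA. In thinned cells PHGDH was found in 10.8% against 1.65% in SplitA and 13.03% against 1.59% in SplitB.

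**Figure D2:**
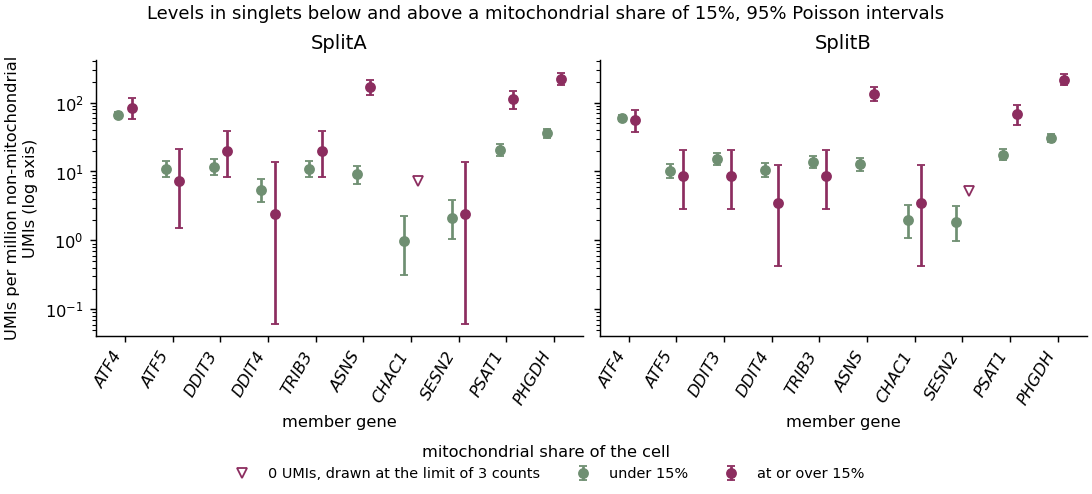
Level of each member in singlets under 15% and at or over 15% mitochondrial share of SplitA (left) and SplitB (right), in CPM on a log axis, with 95% Poisson intervals and open triangles for 0 UMIs at the limit of 3 counts. The classes lie apart in both flasks for ASNS, PSAT1 and PHGDH, and their intervals overlap for ATF4.

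ATF4 and the stress factors did not follow the enzymes. ATF4 had 66.3 CPM under and 83.0 CPM over the limit in SplitA and 59.2 and 55.4 CPM in SplitB, from 34 and 32 UMIs over the limit. DDIT3 had 61 UMIs under and 8 over the limit in SplitA and 108 and 5 in SplitB. TRIB3 had 57 and 8 UMIs in SplitA and 98 and 5 in SplitB, and ATF5 57 and 3 and 72 and 5. For these 4 members the intervals of the levels overlapped between the classes in both flasks. DDIT4 had 28 UMIs (5.40 CPM, 3.59 to 7.80) under and 1 UMI (2.44 CPM, 0.0618 to 13.6) over the limit in SplitA, and 75 (10.6 CPM, 8.31 to 13.2) and 2 (3.46 CPM, 0.419 to 12.5) in SplitB, so that its intervals overlapped as well. CHAC1 and SESN2 had at most 2 UMIs in a class over the limit, too few to test. For CHAC1 in SplitA the count of 0 allows up to 7.32 CPM, above its 0.964 CPM under the limit, so that a fall would not have been detectable at this depth.

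UMI sums per flask and class were tested for all genes by edgeR's quasi-likelihood test with the flask as a block and Benjamini-Hochberg adjustment. Of 11218 genes tested 44.3% passed an adjusted p of 0.05, 21.0% higher and 23.3% lower in cells over the limit, and of the 8 members tested 5 passed, 3 higher and 2 lower. On the log2 scale ASNS was higher by 3.03 ± 0.21 (SE, n = 2 flasks, adjusted p = 2.31e-46), PHGDH by 2.02 ± 0.15 (adjusted p = 1.01e-40) and PSAT1 by 1.48 ± 0.22 (adjusted p = 2.76e-10). The differences of DDIT4 and ATF4 were -2.16 ± 0.68 (adjusted p = 0.00432) and -0.60 ± 0.19 (adjusted p = 0.00398). DDIT4 passed the filter on low counts only through the cells under the limit, where it was higher, so that its call is not separate support. ATF5 (-1.08, adjusted p = 0.0655), DDIT3 (-0.77, adjusted p = 0.120) and TRIB3 (-0.65, adjusted p = 0.209) did not pass. The call of ATF4 was lost with DESeq2, with a limit of 10%, with 9 mitochondrial genes and in cells with at least 1000 genes (adjusted p from 0.127 to 0.317), and its difference was -0.36 in SplitA alone and -0.81 in SplitB alone. A call was common among all genes, so that a call alone does not set a member apart.

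The direction of ATF4 and TRIB3 depended on the scaling. The test used TMM factors, and with library totals alone the median of all genes moved from -0.01 to 0.70. ATF4 was then at 0.11 and TRIB3 at 0.06, DDIT4 at -1.46 (adjusted p = 0.0816 by edgeR), while ASNS was at 3.74, PHGDH at 2.73 and PSAT1 at 2.19. Higher genes made up 82.8% of all calls with library totals and 47.4% with TMM. The scaling moves all genes together, so that relative to the median gene the 3 enzymes lay above and ATF4, TRIB3 and DDIT4 below. DDIT4 did not pass with 9 mitochondrial genes or in cells with at least 1000 genes either (adjusted p = 0.376 and 0.298 by edgeR), nor without the cells under 5% mitochondrial share, a class set apart after seeing the data (-1.50, adjusted p = 0.0773 by edgeR).

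In cells of 1000 to 3000 UMIs, whose depths were closer but not equal, only ASNS was called, of 4 members tested (ATF4, ASNS, PSAT1 and PHGDH). Of all 3347 genes tested in these cells 371 were higher and 548 lower. There were 18 and 33 such cells under the limit and 265 and 357 over it, with medians of 2618 and 2328 against 1686 and 1681 UMIs. ASNS had 0 UMIs in SplitA and 3 in SplitB under the limit, and 62 UMIs (201 CPM) and 67 UMIs (164 CPM) over it. It passed the filter on low counts only through the cells over the limit, so that its call is not separate support. PHGDH had 47.8 CPM (5.79 to 173, 2 UMIs) against 237 CPM in SplitA and 94.5 CPM (34.7 to 206, 6 UMIs) against 225 CPM in SplitB, a log2 difference of 1.15 that did not pass (adjusted p = 0.0859 by edgeR). PSAT1 had 95.6 CPM (26.1 to 245, 4 UMIs) against 104 CPM in SplitA and 31.5 CPM (3.81 to 114, 2 UMIs) against 80.6 CPM in SplitB, a difference of 0.19. The intervals are wide, because few cells under the limit were this shallow.

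By finer classes of mitochondrial share, the enzymes stepped up between 10 to 15% and 15 to 30%. ASNS had 8.60 and 11.0 CPM in SplitA and SplitB at 5 to 10%, 9.66 and 15.9 CPM at 10 to 15%, 114 and 107 CPM at 15 to 30% and 222 and 161 CPM at 30 to 50%. PHGDH had 28.02 and 28.8 CPM at 10 to 15% and 215 and 148 CPM at 15 to 30%. At the same step the median depth of the cells went from 6630 and 6904 to 1853 and 2054 UMIs. The classes over 50% held 15 and 42 cells and too few UMIs to read.

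**Figure D3:**
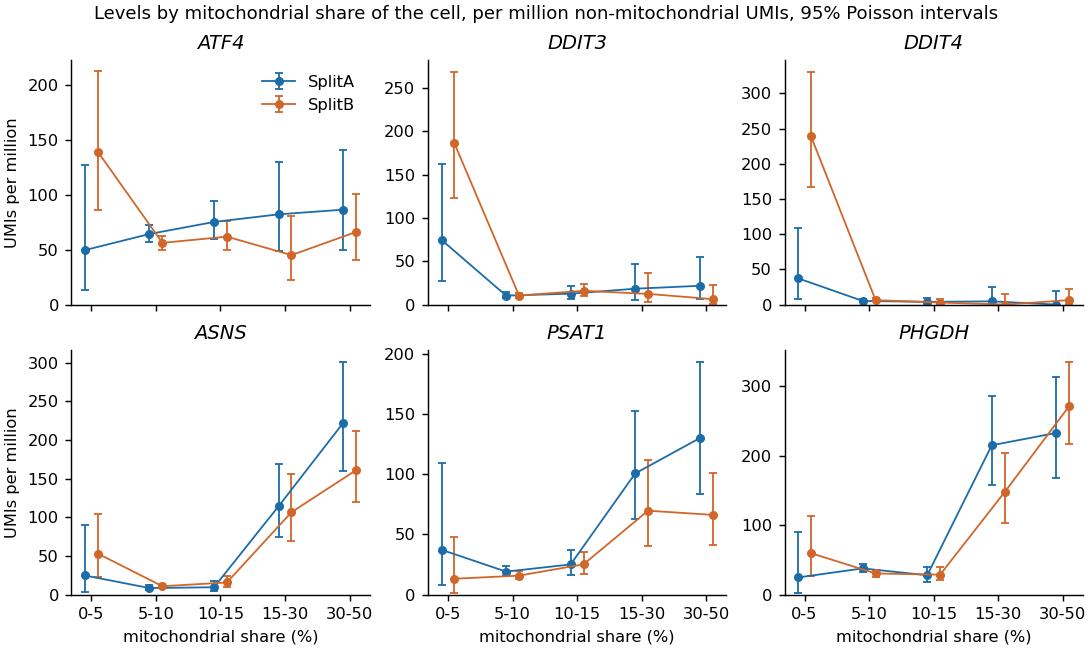
Levels of 6 members (panels) by class of mitochondrial share of the cell (x axis, percent), in CPM with 95% Poisson intervals, for SplitA and SplitB. ASNS, PSAT1 and PHGDH are higher from 15% on, and DDIT3 and DDIT4 are highest under 5%, where 1 of 23 and 6 of 41 cells hold most of their UMIs.

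At the other end, the summed levels of DDIT3 and DDIT4 were highest in the cells under 5%, of which there were 23 in SplitA and 41 in SplitB, but most of the UMIs lay in few of these cells. DDIT3 had 6 and 28 UMIs there, or 74.5 CPM (27.4 to 162) and 186 CPM (123 to 269), against 10.3 and 10.4 CPM at 5 to 10%. DDIT4 had 3 and 36 UMIs, or 37.3 CPM (7.69 to 109) and 239 CPM (167 to 331), against 5.16 and 6.30 CPM. These cells held 46.8% of the DDIT4 and 24.8% of the DDIT3 UMIs of SplitB, and 10.3% and 8.70% of those of SplitA, against 1.96% and 1.44% of all UMIs off the mitochondrial genes. In SplitB 6 of the 41 cells, those with at least 3 UMIs of either gene, held 32 of the 36 DDIT4 and 22 of the 28 DDIT3 UMIs. The other cells under 5% had 36.3 CPM of DDIT4 (9.89 to 92.9, 4 UMIs) and 54.4 CPM of DDIT3 (19.98 to 119, 6 UMIs). In SplitA 1 cell held the 3 DDIT4 UMIs and 4 of the 6 of DDIT3. ATF4 had 49.7 CPM (13.5 to 127) in SplitA and 139 CPM (86.3 to 213) in SplitB, against 64.4 and 56.3 CPM at 5 to 10%. In SplitB 9 of its 21 UMIs lay in the same 6 cells, and the other cells under 5% had 109 CPM (56.3 to 190). That interval overlapped the one at 5 to 10% (50.2 to 62.9 CPM). ATF5 had no UMI in the cells under 5% in either flask.

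The other genes of the pathway showed where the enzymes stood in these cells. The lists were drawn up from general knowledge with earlier results of these data known, and are given as counts beside the 21.0% higher and 23.3% lower of all genes, whose median log2 difference was -0.01. Of 9 transporters listed, 7 were tested and 4 were higher with none lower (median 0.59), led by SLC3A2, a chain shared by several amino acid transporters (2.67 ± 0.18). Of 13 tRNA synthetases and export genes linked to ATF4, 12 were higher (median 1.11), such as AARS1 (2.02 ± 0.31) and EPRS1 (1.97 ± 0.15). Of the 8 other cytosolic synthetases, listed for contrast, 7 were higher as well (median 1.49), such as HARS1 (1.98 ± 0.17), so that the rise was not particular to synthetases linked to ATF4.

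Of 9 tested genes of amino acid and one-carbon synthesis, 4 were higher and 1 lower (median 0.57), the higher ones being CTH (2.36 ± 0.63) of cysteine synthesis, SHMT2 (1.58 ± 0.19), ALDH18A1 (1.48 ± 0.28) and GOT1 (1.15 ± 0.28). Of 14 eIF2 kinases, subunits and regulators, 7 were higher and 2 lower (median 0.41), and the ER stress kinase EIF2AK3 was higher by 1.65 ± 0.47. Of 15 ER chaperones and other targets of ATF6 or IRE1, 9 were higher and 1 lower (median 0.86), led by HSPA5 (3.37 ± 0.10), the main chaperone of the ER lumen, and HSP90B1 (2.66 ± 0.09). Of 7 tested genes of the mitochondrial stress relay, 3 were higher and 2 lower (median 0.24), with the chaperones HSPA9 at 2.06 ± 0.12 and HSPE1 at -1.48 ± 0.10. CEBPG, a partner of ATF4, was lower (-1.79 ± 0.29) and was the only 1 of 3 tested partner factors that passed. EIF4EBP1, an inhibitor of translation, was lower (-1.67 ± 0.11) and was the only 1 of 3 tested secreted and other targets that passed.

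Lists of other responses were counted beside the same 21.0% higher and 23.3% lower of all genes. For lists this short, the counts of p53 and hypoxia targets lay near these shares. Of 10 p53 targets 1 was higher and 3 were lower (median -0.49), with CDKN1A at -1.79 ± 0.35, and of 9 tested hypoxia targets 1 was higher and 3 were lower (median -0.07), with NDUFA4L2 at -1.59 ± 0.26. Both nuclear RNAs were higher, MALAT1 by 0.75 ± 0.08 and NEAT1 by 0.88 ± 0.09. Of 8 tested neuroblastoma markers 3 were higher, led by CHGA (2.09 ± 0.08), and 3 were lower, led by HAND2 (-0.84 ± 0.10). Of 3 tested fibroblast markers LUM was higher (1.65 ± 0.47), the summed level of the 6 listed being 24.7 and 25.2 CPM under and 51.2 and 65.7 CPM over the limit. In cells with 1000 or more genes PDGFRB had 15.8 and 14.2 CPM in SplitA and SplitB. COL3A1, LUM and COL1A1 lay between 1.88 and 6.16 CPM there, and COL1A2 and DCN had no UMI. No immune marker had enough UMIs to test. With library totals alone 5202 of all 11218 genes were higher and only 1084 lower. No gene of the eIF2, synthesis, ER or neuroblastoma lists was then lower, and the synthesis list had 6 and the ER list 13 of their genes higher. DESeq2 called fewer, 990 higher and 1290 lower of all 11218 genes. It called 5 of the ER list, 3 of the eIF2 list, 2 of synthesis and 2 transporters higher. The ER list had 1 gene lower, and 1 of the p53 and 2 of the hypoxia targets were lower. Of the synthetases, 11 of the 13 linked to ATF4, with export genes, and 7 of the 8 others were higher. In cells of 1000 to 3000 UMIs 371 of 3347 tested genes were higher and 548 lower. No eIF2 gene was called there, and of 5 tested synthesis genes none was higher and 1 was lower. Of the tested genes 2 of 4 transporters, 2 of 11 synthetases and export genes linked to ATF4, 3 of 8 other synthetases and 5 of 10 ER genes were higher. None of these 4 lists had a lower gene.

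The second comparison was by cell cycle phase, scored from 42 S and 52 G2M genes that were then left out of the test. There were 369, 276 and 254 cells in G1, S and G2M in SplitA and 505, 348 and 342 in SplitB. PHGDH and PSAT1 were higher in S and G2M than in G1 and ASNS in S, DDIT3 and DDIT4 were lower in both, and ATF4 did not pass in either. Cells at or over 15% mitochondrial share, in which the enzymes were high, made up 3.79%, 14.1% and 6.69% of G1, S and G2M cells in SplitA and 4.55%, 13.8% and 9.65% in SplitB. Median depths were 5830, 5792 and 7077 UMIs in the phases of SplitA and 6130, 6090 and 6969 in those of SplitB.

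ASNS had 5.67 CPM in G1, 24.6 in S and 14.2 in G2M in SplitA, and 11.4, 24.7 and 16.3 CPM in SplitB. PHGDH had 26.9, 53.8 and 49.2 CPM in SplitA and 23.8, 46.9 and 42.9 CPM in SplitB. PSAT1 had 12.3, 21.2 and 36.7 CPM in SplitA and 10.8, 25.2 and 23.5 CPM in SplitB. G1 was thus the lowest phase for the 3 enzymes in both flasks, while the highest was S for ASNS and PHGDH and differed between the flasks for PSAT1.

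DDIT4, the mTORC1 inhibitor, was found mostly in cells scored as G1. It had 26 UMIs in G1, 0 in S and 2 in G2M in SplitA, and 66, 3 and 5 in SplitB. In SplitA its level was 0 CPM (up to 2.45) in S against 12.3 CPM (8.02 to 18.0) in G1. In SplitB it was 1.48 CPM (0.305 to 4.33) in S against 21.5 CPM (16.6 to 27.4) in G1. DDIT3 had 16.5, 12.6 and 5.33 CPM in SplitA and 24.1, 8.89 and 9.04 CPM in SplitB. In SplitB the 4 cells with at least 3 UMIs of DDIT4, which held 36 of its 74 UMIs, were all in G1. So were the 5 cells with at least 3 UMIs of DDIT3, which held 26 of its 112. ATF4 had 69.4, 58.4 and 71.1 CPM in SplitA and 54.8, 57.8 and 66.9 CPM in SplitB, without a common order of the phases. Of the members too rare to test, CHAC1 had 13, 3 and 0 UMIs in SplitB and SESN2 9, 2 and 0 in SplitA. For CHAC1 the intervals of 4.24 CPM (2.26 to 7.25) in G1 and 0 CPM (up to 1.67) in G2M lay apart. For SESN2 those of 4.25 CPM (1.94 to 8.07) in G1 and 0 CPM (up to 2.18) in G2M overlapped. Counts of 0 in G2M were not seen in the other flask, where CHAC1 had 2, 2 and 1 and SESN2 6, 2 and 5 UMIs.

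**Figure D4:**
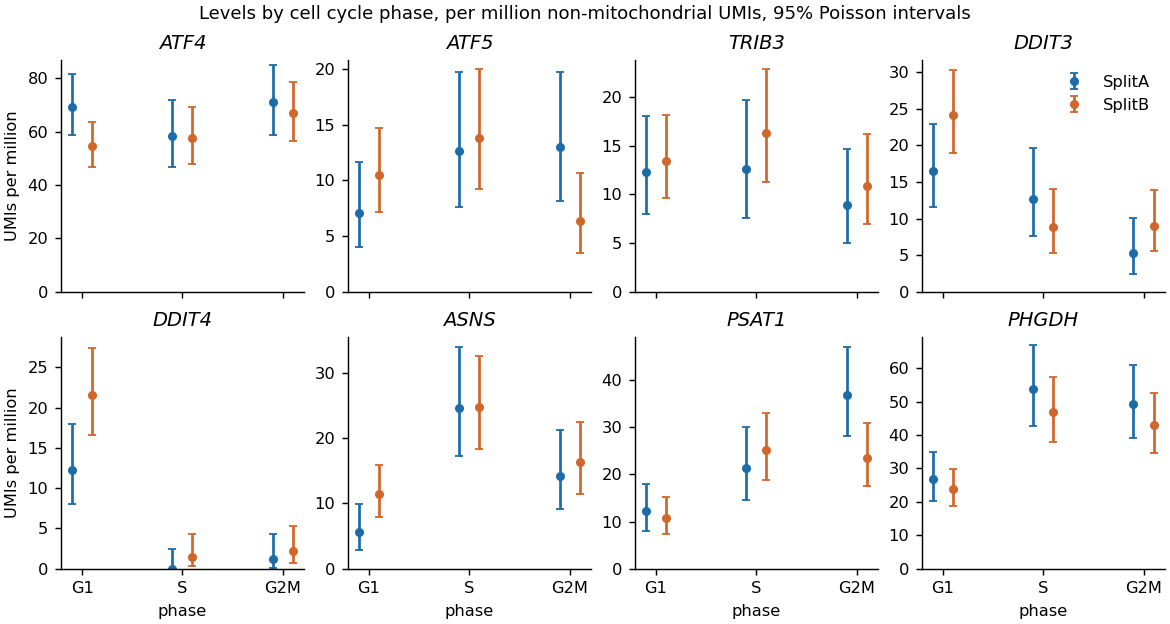
Level of members (panels) by cell cycle phase (x axis) in cells with at least 1000 genes, in CPM with 95% Poisson intervals, for SplitA and SplitB. ASNS, PHGDH and PSAT1 are lowest in G1, DDIT4 and DDIT3 are highest there, and ATF4 has no common order.

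In S against G1, edgeR's test passed 5 of the 8 members tested, 3 higher and 2 lower, against 19.2% of 10415 genes, 9.90% higher and 9.30% lower. ASNS was higher by 1.35 ± 0.26 on the log2 scale (n = 2 flasks, adjusted p = 3.09e-05), PSAT1 by 0.94 ± 0.25 (adjusted p = 0.00309) and PHGDH by 0.89 ± 0.17 (adjusted p = 1.93e-05). DDIT3 was at -1.08 ± 0.27 (adjusted p = 0.00146). DDIT4, whose fitted fold depends on the 0 in SplitA, was lower with adjusted p = 6.18e-11. It passed the filter on low counts only through G1, where it was high, so that its call is not separate support. In cells thinned to 2000 UMIs DDIT4 had too few UMIs to test. Without the cells under 5% mitochondrial share DDIT3 was at -0.76 and did not pass (adjusted p = 0.0527 by edgeR). ATF5 (0.46), TRIB3 (0.10) and ATF4 (-0.17) did not pass. The calls of PSAT1 and DDIT3 were lost with DESeq2 (adjusted p = 0.275 and 0.395) and in cells thinned to 2000 UMIs (adjusted p = 0.432 and 0.411 by edgeR). In cells under 15% mitochondrial share alone the 3 enzymes still passed, with ASNS at 0.98 (adjusted p = 0.0293 by edgeR), PSAT1 at 0.84 (adjusted p = 0.0223) and PHGDH at 0.73 (adjusted p = 0.00308). In SplitA alone DDIT3 was at -0.49 and ASNS at 2.00, and in SplitB alone they were at -1.52 and 1.02.

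In G2M against G1, 4 of the 8 passed, 2 higher and 2 lower, against 29.7% of all genes, 14.6% higher and 15.1% lower. PSAT1 was higher by 1.23 ± 0.23 (adjusted p = 1.24e-05 by edgeR) and PHGDH by 0.73 ± 0.17 (adjusted p = 0.000288). DDIT4 was at -3.36 ± 0.42 (adjusted p = 2.94e-10) and DDIT3 at -1.60 ± 0.28 (adjusted p = 3.54e-06). DDIT4 entered this test through G1 alone as well, so that its call is not separate support here either. ASNS was at 0.65 ± 0.28 and missed the threshold (adjusted p = 0.0763), which it passed without the cells under 5% (0.78, adjusted p = 0.0316), while in cells under 15% it was at 0.16 (adjusted p = 0.785). ATF4 (0.05), ATF5 (-0.09) and TRIB3 (-0.48) did not pass. In cells thinned to 2000 UMIs PSAT1 (0.86, adjusted p = 0.114 by edgeR) and PHGDH (0.73, adjusted p = 0.0572) did not pass and TRIB3 did (-1.82, adjusted p = 0.0176). With DESeq2 the call of PHGDH was lost (adjusted p = 0.102).

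The lists in the cycling cells were read against a median of all genes near 0 in S and of 0.03 in G2M. Of all genes 9.90% were higher and 9.30% lower in S, and 14.6% higher and 15.1% lower in G2M. Of 8 tested synthesis genes 3 were higher in S and 2 in G2M with none lower, and MTHFD2 of the mitochondrial folate pathway rose in both (0.80 ± 0.15 and 0.82 ± 0.15). Transporters were higher in 3 of 7 in S and 5 of 7 in G2M with none lower, among them SLC1A5, a glutamine transporter (1.15 ± 0.18 and 0.93 ± 0.19), and SLC7A1 (0.80 ± 0.19 and 0.95 ± 0.18). Synthetases and export genes linked to ATF4 were higher in 1 of 13 in S and 7 of 13 in G2M, such as AARS1 (1.23 ± 0.33) and XPOT (0.91 ± 0.19), while of the 8 other synthetases 1 was higher and 1 lower in S and 1 was lower in G2M. With DESeq2 far fewer passed, with 0 synthesis genes, 1 transporter and 0 of the synthetases and export genes linked to ATF4 higher in S, and 1 of each of these 3 lists in G2M. Over all 10415 genes DESeq2 called 313 higher and 263 lower in S and 420 higher and 538 lower in G2M.

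Of the 15 ER chaperones and other targets of ATF6 or IRE1, 1 was higher and 4 were lower in S and 9 were lower in G2M with none higher (median -0.56). They include HERPUD1 (-0.93 ± 0.25), of the degradation of ER proteins, and the transcription factor XBP1 (-0.91 ± 0.17), and DESeq2 called 0 in S and 5 lower in G2M. PPP1R15A, which directs the phosphatase that reverses eIF2 phosphorylation, was lower in both phases (-0.99 ± 0.22 and -0.61 ± 0.20), among 13 tested eIF2 genes of which 1 was higher and 1 lower in S and 1 higher and 2 lower in G2M. CEBPG was higher in both (0.63 ± 0.16 and 0.57 ± 0.16), and of the 3 tested partner factors CEBPB was lower in S (-1.29 ± 0.45). EIF4EBP1, the only secreted or other target tested, was higher in both (0.56 ± 0.05 and 0.29 ± 0.05). Of 7 mitochondrial stress genes 3 were higher in S and 2 in G2M with none lower, such as HSPA9 (0.65 ± 0.14 and 0.39 ± 0.14).

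DDIT3 and DDIT4 were lower beside genes of several lists, of other stress responses and not. Of all genes 9.30% were lower in S and 15.1% in G2M. Of 9 tested hypoxia targets 4 were lower in S and 4 in G2M with none higher, led by NDUFA4L2 (-2.79 ± 0.17 and -2.77 ± 0.17), with VEGFA at -0.95 ± 0.20 and -0.68 ± 0.18. Of 10 p53 targets 3 were lower in each phase with none higher, led by TP53INP1 in S (-1.01 ± 0.29) and BBC3 in G2M (-1.43 ± 0.21). DESeq2 called 2 hypoxia targets lower in each phase, and 0 p53 targets in S and 1 in G2M. Both nuclear RNAs were lower in both phases, and of 8 tested neuroblastoma markers 7 were lower and 1 higher in S and 6 lower and 1 higher in G2M. Of 2 tested fibroblast markers COL3A1 was lower in S (-2.09 ± 0.53) and none passed in G2M. The part of these in the members' differences was not tested.

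A common rise and fall of the 10 members from cell to cell was not seen, but counts this sparse could hide one. Over the cells with at least 1000 genes, the log-normalized values of the 45 pairs of members had a median Pearson r of -0.01 in SplitA and 0.01 in SplitB. These are descriptions over 899 and 1195 cells that share a library and differ in depth, and in counts this sparse a weak r is no finding. Only 1 pair had r over 0.1 in both flasks, ASNS with PHGDH (0.24 and 0.17), against 0.320% of 77760 pairs of a member with another gene. That share pools members that differed widely. By single flask ASNS had r over 0.1 with 5.11% of 7776 other genes in SplitA and 3.37% in SplitB. PHGDH had it with 3.97% and 2.61%, and the other members with 0.0514% to 2.78%. Whether the pair is unusual for ASNS and PHGDH themselves was not tested. The r of ATF4 with the other members lay between -0.05 and 0.09, and with ASNS it was -0.03 and 0.00.

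Which pair stood out depended on the cells and on the handling of depth. ASNS with PSAT1, at 0.09 and 0.16 over all cells, was over 0.1 in both flasks with log10 UMIs regressed out (0.11 and 0.17). It was so too with mitochondrial UMIs left out of the total (0.11 and 0.17). In cells under 15% mitochondrial share, however, it was at 0.01 and 0.08, and in thinned cells at -0.01 and 0.02. Within the cells under 15% mitochondrial share ASNS with PHGDH was at 0.08 and -0.00. DDIT3 with DDIT4, over all cells at 0.09 and 0.21 and by Spearman at 0.05 and 0.11, was the pair over 0.1 in both flasks (0.10 and 0.22). The same was seen in cells with at least 2000 genes, with ASNS and PHGDH at 0.00 and 0.07 and DDIT3 and DDIT4, again the only pair, at 0.21 and 0.31. In cells thinned to 2000 UMIs no pair was over 0.1 in both flasks, with ASNS and PHGDH at 0.20 and 0.08. In those thinned cells PHGDH was found in 11 of 29 SplitA cells with a UMI of ASNS (37.9%, 20.7% to 57.7%, exact Clopper-Pearson) against 7.71% of the cells without, and in 7 of 41 SplitB cells (17.1%, 7.15% to 32.1%) against 7.38%. DDIT4 was found in 1 of 17 SplitA cells with a UMI of DDIT3 (5.88%, 0.149% to 28.7%) against 1.14% of those without. In SplitB it was found in 3 of 33 (9.09%, 1.92% to 24.3%) against 1.29%, so that few cells held both. DDIT4 with CHAC1 in SplitB (0.22) and DDIT3 with SESN2 in SplitA (0.21) were high in 1 flask each, and near 0 in the other (-0.01 and 0.02).

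**Figure D5:**
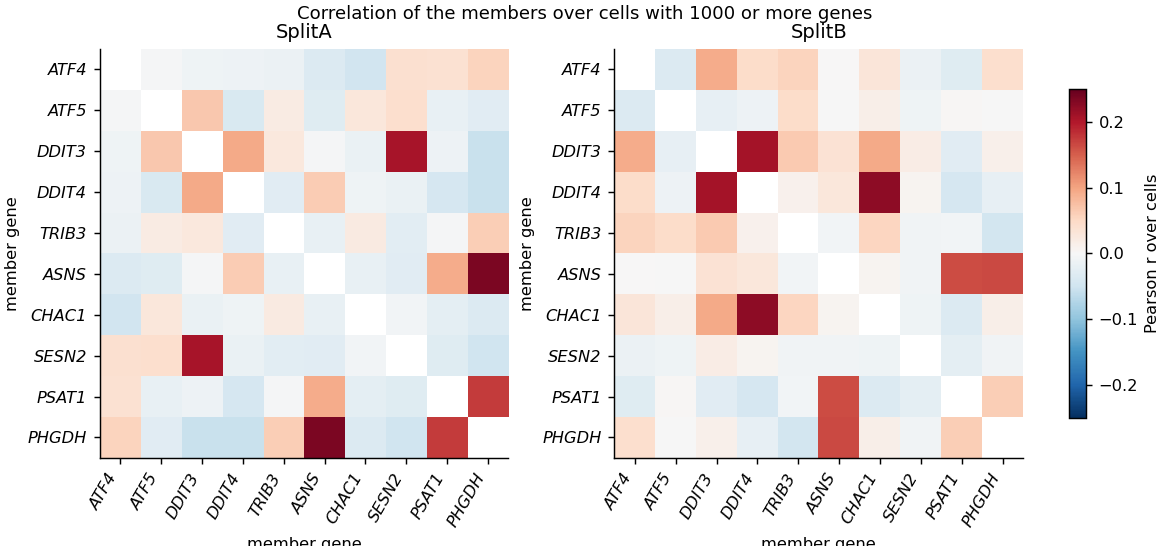
Pearson r of each pair of members (axes) over the cells with at least 1000 genes of SplitA (left) and SplitB (right), by colour on a scale centred at 0. Most pairs are near 0, ASNS with PHGDH is at 0.24 and 0.17, and DDIT3 with DDIT4 is at 0.09 and 0.21.

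Likeness was also measured for 7776 other genes detected in 5% or more of the cells in each flask. For the summed score of the members, by the smaller r of the flasks, the cytosolic chaperone HSP90AA1 came first (0.19 and 0.19), then PKM (0.14 and 0.17), TUBB4B (0.14 and 0.15), HSP90B1 (0.19 and 0.13) and FKBP4 (0.13 and 0.14), followed by ENO1, IFRD1, HSP90AB1, CCT2 and EMC7. For a single member the nearest gene was HSP90AA1 for ASNS (0.29 and 0.26) and for PHGDH (0.23 and 0.25), RRM2, an enzyme of nucleotide synthesis, for PSAT1 (0.14 and 0.13), AQP1 for DDIT4 (0.23 and 0.16) and CDKN1A for DDIT3 (0.11 and 0.13). The nearest genes of ATF4 (BCAT1), ATF5 (MGAT4A) and TRIB3 (TMA16) had a smaller r between 0.08 and 0.09, and those of CHAC1 (FANCF) and SESN2 (ZPR1) rest on the rarest members. In cells under 15% mitochondrial share the genes most like the score were HSP90AA1 (0.12 and 0.16), IFRD1, SLC3A2, TRMT6, PPP4C, EIF5, PSMD13, TXNDC17, PHLDA3 and GADD45A, so that only the first 2 of these were shared. There HSP90AA1 still came first for ASNS (0.13 and 0.13), while RANBP1 was nearest to PHGDH and H2AZ1 to PSAT1, and CDKN1A and AQP1 were again nearest to DDIT3 and DDIT4.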

How the data were processed

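The submitters' processing notes name STAR 2.7 and Cell Ranger 4.0.0, the authors mapped to GRCh38, and the annotation version is not given in the sources used here. The deposited matrix holds raw UMI counts per gene identifier and cell, without normalization, and 0 columns were left unused. The deposited matrix had been filtered for cells by the authors, and same-flask doublets were not called. The 10 members and 15 lists were chosen with earlier results of these data known. The named genes are the members, at most 4 called genes of a list with the largest differences, the 10 genes most like the member score and the 1 most like each member. Genes singled out in cells with many DDIT3 or DDIT4 UMIs were chosen after seeing their values.

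Sums per flask and class were tested with edgeR 4.0.16 (TMM, filterByExpr, quasi-likelihood, flask as block, since each flask gave every class, adjusted p under 0.05) in R 4.3.3, after tests on simulated data, with DESeq2 1.42.0 as an alternative. Each SE was derived from the log2 difference and the test statistic of edgeR, and so rests on the same moderated dispersion. Phases came from Seurat 5.3.0. Correlations used log-normalized values at a scale of 10000. The sums, levels and correlations were made in Python 3.11.15 (pandas 2.3.3, scipy 1.17.1, numpy 2.4.6), the plots in matplotlib 3.10.9, and positions come from GENCODE on GRCh38. Intervals are exact Poisson (levels) or Clopper-Pearson (shares) at 95% and cover counting error only. Where a count of 0 was drawn in a plot on a log axis, it was drawn at 3 counts. Depth was 6267464 UMIs in SplitA singlets and 8638459 in SplitB. The mitochondrial genes set the classes and were left out of totals and test.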

Additional observations from a re-analysis of the deposited data

How the results depend on the processing

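Both flasks were 1 experiment, and in cells over 15% mitochondrial share 7 of the 10 members had at most 34 UMIs per flask, which limits what could be seen. For high against low mitochondrial share, 4975 of 11218 genes and 5 of 8 members tested were called. Of the same 11218 genes DESeq2 called 2280 with 3 members, and library totals alone called 6286 with 3 members. A limit of 10% called 3216 of 11247 genes and 4 members. Using 9 mitochondrial genes called 2412 of 11071 genes and 3 members, and cells with 1000 genes or more 2372 of 11200 and 3. Cells of 1000 to 3000 UMIs gave 919 of 3347 genes and 1 of 4 members tested. In S against G1 the counts of 2000 genes and 5 members became 576 and 2 with DESeq2 and 732 and 2 in cells thinned to 2000 UMIs. In G2M against G1 those of 3093 and 4 became 958 and 2 with DESeq2 and 1078 and 2 in thinned cells. Fewer genes were tested in cells of 1000 to 3000 UMIs and in thinned cells (6581 against 10415), where ATF5 and DDIT4 were not among them. For the other changes the cause was not tested. DESeq2 gave no adjusted p for DDIT4 in the 3 contrasts nor for ATF5 in the first. The pairs over r 0.1 were 0 in thinned cells, 0 by Spearman, 2 with log10 UMIs regressed out, 2 with mitochondrial UMIs left out of the total, and 3 to 4 by a single flask, against 1 over both. For mitochondrial share the sign of ATF4 turned with library totals (0.11), and that of TRIB3 with library totals (0.065) and with 9 mitochondrial genes (0.12), and in S against G1 TRIB3 was at -0.53 in thinned cells, none of them called there. A single flask leaves no residual degrees of freedom, so no calls were made there. By flask ASNS for mitochondrial share was at 2.68 to 3.53, DDIT3 at -1.52 to 0.05 and TRIB3 at -1.38 to 0.15. Without the replicate block 5048, 1962 and 3055 genes were called, and no member's call changed. Leaving out cells under 5% mitochondrial share was chosen after seeing the data.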
